A study of Mus musculus with 4 samples.

Results

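The clustered replication-dependent histone genes were taken as every protein-coding RefSeq gene on mouse chromosomes 3, 11 and 13 with a current or older symbol that starts with Hist1h, Hist2h or Hist3h. This rule gave 66 of the 21887 protein-coding genes on the assembled chromosomes. They were 6 linker H1 genes, 18 H2A, 18 H2B, 12 H3 and 12 H4 genes. Chromosome 3 held 10 of them (chr3:96219885-96270192) and chromosome 11 held 2 (chr11:58948911-58955192). Chromosome 13 held a first cluster of 23 (chr13:21715711-22043658) and a second of 31 (chr13:23531044-23934913), on build GRCm38.p6, the assembly that mm10 represents. Open chromatin at these genes was read from ATAC-seq, an assay in which the Tn5 transposase cuts and tags DNA that is not packed away. The 4 libraries, replicates 1 to 4, formed 1 group of wt mouse lung taken from embryos at E15.5, with no transgene or treatment named. Per the labels, lungs were frozen in liquid nitrogen and 60000 nuclei were tagmented, though the peak names of replicate 1 differ on freezing, as given below. The labels do not tie a replicate to an embryo or a litter, so an SD over libraries gives the spread of these samples alone and may be technical. No contrast between conditions could be tested, and counts of members stand beside the same counts over all genes where those were made.

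Replication-dependent histone genes supply the proteins that package newly copied DNA. They are short, nearly all lack introns, and most of their transcripts end in a stem-loop bound by SLBP in place of a poly(A) tail. Their transcription rises when cells enter S phase, when NPAT and its partners gather at the clusters in a nuclear structure called the histone locus body. Neither transcription nor cell division was measured in these libraries. A few clustered members are known instead from the male germ line, among them the linker histone gene H1f6 (H1t) and the divergent pair H2bc1 (TH2B) and H2ac1 (TH2A).

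The libraries held 134503 to 211678 peaks on the assembled chromosomes, with a median fold enrichment of 8.99 in replicate 1 and 3.73 to 3.90 in the others. Replicate 1 had the fewest peaks, covering 78.6 Mb against 140.7 to 162.1 Mb in the others, and the peak names in its list carry the French word for fresh where the others carry "Frozen". That word conflicts with the freezing given in the labels, and which holds for replicate 1 is not known. Because of the gap in fold and coverage a peak was ranked by fold within its own library. The rank is given as a percentile, where 100 is the strongest peak of that library. Open is used here of a gene with a peak in all 4 libraries that touches the 500 bp on either side of an annotated start. As a check of the tissue, all 9 lung markers were open, including Nkx2-1, Foxf1 and Sftpc, as were 3 of 3 endothelial and 2 of 4 blood markers, and 0 of 5 markers of other organs. The same call held for 65.1% of all protein-coding genes. In 5 of the 9 lung markers, Nkx2-1 not among them, a peak's point of highest signal lay within 500 bp of a start in every library.

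Of the 66 clustered histone genes, 64 were open in lung, against 65.1% of all 21887 protein-coding genes (14253). In whole lung, the share of cells open at a gene and the openness per cell cannot be told apart. The same 64 genes had a peak in each of the 4 libraries, where 67.0%, 70.7%, 71.4% and 71.5% of all genes had one. The 2 without any peak in any library were H2bc1 and H2ac1, the testis-type pair at the far end of chromosome 13's second cluster. Absence of a peak was not rare elsewhere, since 5526 protein-coding genes (25.2%) had none in any library. Per class, 6 of 6 H1, 17 of 18 H2A, 17 of 18 H2B, 12 of 12 H3 and 12 of 12 H4 genes were open.

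The peaks at these genes were among the strongest of each library. The median percentile of the 64 open members was 98.8 (mean over libraries, then median over genes), with a range of 51.3 to 99.97, and that of all 14253 open genes was 94.6. In replicates 1 to 4 the members' median was 98.5, 99.2, 99.1 and 99.0, against 91.3, 95.6, 96.1 and 95.8 for all genes with a peak in every library. The gap had the same direction in each library. The SD of the members' median over the 4 libraries was 0.341, which measures neither the spread between genes nor that of the gap. Above the 95th percentile lay 62 of the 64 open members, against 46.9% of open genes. The 2 below it were H1f6 at 51.3 and H2bu2, an H2B gene of the small chromosome 11 cluster, at 83.8. In fold enrichment, the median at open members was 168, 65.2, 51.3 and 51.7 in replicates 1 to 4, against 56.5, 24.8, 21.7 and 22.1 at all open genes. Replicate 1 gave the lowest percentile of the 4 at 42 of the 64 open members and at 90.2% of open genes.

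**Figure D1:**
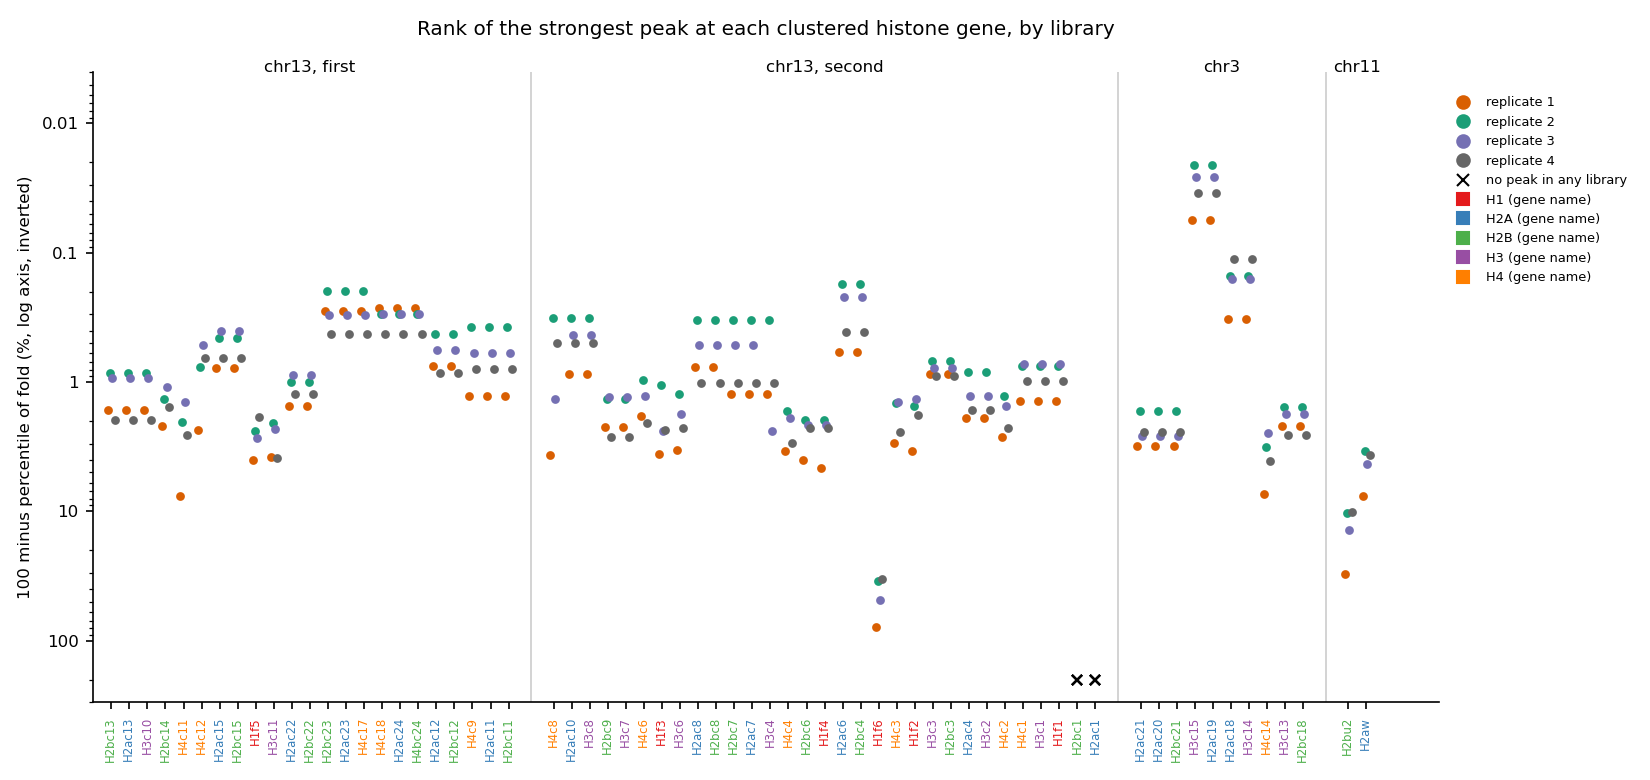
Rank of the strongest peak touching each of the 66 clustered histone genes, in chromosome order within each cluster, with 1 point per library; the inverted log axis gives 100 minus the percentile, so the strongest peaks are at the top, and crosses, placed below the scale, mark genes with no peak. Most points lie at axis values under 10, in the upper part, H1f6 and H2bu2 sit lowest, and H2bc1 and H2ac1 have crosses alone.

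Neighbouring members often lay under the same peak, so their values are not independent. The 64 open members were touched by 38, 36, 40 and 35 different peaks in replicates 1 to 4 (37.3 ± 2.22, SD, n = 4), and 47.5 ± 1.29 members shared a peak with another member. Peaks touching members had a median width of 2466.5, 3703.5, 2679.5 and 3132 bp, against 1083, 1895, 1913 and 2127 bp for peaks at any protein-coding start and 401 to 448 bp for all peaks. The widest ran over 5103, 9114, 6122 and 7320 bp. In replicate 2 a single peak took in 5 genes, H2ac8, H2bc8, H2bc7, H2ac7 and H3c4, and replicate 1 split the same stretch into a peak over the first pair and a peak over the other 3. The caller lists 1 summit, the point of highest signal, per peak, so other maxima inside a wide peak are not seen.

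With the summit itself required within 500 bp of the start in every library, 40 of 66 members passed, against 53.9% of all protein-coding genes (11789), and that share is near the background. In single libraries 45, 43, 44 and 41 members had a summit of their own. The H2B genes kept one most often, 16 of 18, followed by 11 of 18 H2A genes, 6 of 12 H3, 6 of 12 H4 and 1 of 6 H1 genes. In all, 24 open members had a more distant nearest summit in at least 1 library, which came to 83 gene and library combinations. In 68 of the 83 that summit lay within 500 bp of the start of another histone gene of the clusters, and for 19 of the 24 genes this held every time.

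Promoter sequence was read from RefSeq windows of 300 bases, running from 250 before to 50 after each annotated start (GRCm38.p6), which were given for 61 of the 66 members; H2bc21, H4c14, H3c7, H2bc4 and H3c1 had no entry. A promoter is shown for each class, then those of the germ-line genes H1f6 and H2bc1, which had the weakest peak and no peak. They are H2ac6 (chr13:23683910-23684209, minus strand), H2bc23 (chr13:21810150-21810449, minus strand), H3c2 (chr13:23752095-23752394, plus strand), H4c2 (chr13:23756687-23756986, plus strand), H1f3 (chr13:23554782-23555081, plus strand), H1f6 (chr13:23695561-23695860, plus strand) and H2bc1 (chr13:23934107-23934406, minus strand), each printed 5′ to 3′ on the strand of its gene. Capitals mark the elements searched, on either strand: CCAAT (or ATTGG), the box bound by NF-Y; TATAAA (or TTTATA), the TATA box; ATTTGCAT (or ATGCAAAT), the octamer bound by OCT1; AAACACA (or TGTGTTT), the AC box of H1 genes; and GGTCCG (or CGGACC), an element of H4 genes bound by HINFP.
H2ac6: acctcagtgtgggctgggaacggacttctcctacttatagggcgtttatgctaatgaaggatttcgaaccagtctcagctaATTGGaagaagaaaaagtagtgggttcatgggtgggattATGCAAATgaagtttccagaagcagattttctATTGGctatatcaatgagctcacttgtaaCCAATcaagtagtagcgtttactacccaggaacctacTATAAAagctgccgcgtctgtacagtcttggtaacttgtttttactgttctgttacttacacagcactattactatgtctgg
H2bc23: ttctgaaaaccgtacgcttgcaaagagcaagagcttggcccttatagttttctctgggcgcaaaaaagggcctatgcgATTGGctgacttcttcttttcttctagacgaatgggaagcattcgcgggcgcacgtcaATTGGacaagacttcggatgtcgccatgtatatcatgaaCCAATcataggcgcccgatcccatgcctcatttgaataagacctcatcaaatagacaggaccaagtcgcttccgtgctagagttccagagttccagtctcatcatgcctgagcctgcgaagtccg
H3c2: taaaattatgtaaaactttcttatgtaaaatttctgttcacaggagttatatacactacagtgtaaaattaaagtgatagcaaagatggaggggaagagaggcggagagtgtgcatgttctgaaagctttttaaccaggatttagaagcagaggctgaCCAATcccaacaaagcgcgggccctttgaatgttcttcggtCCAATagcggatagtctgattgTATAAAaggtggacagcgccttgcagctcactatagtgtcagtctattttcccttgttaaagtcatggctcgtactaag
H4c2: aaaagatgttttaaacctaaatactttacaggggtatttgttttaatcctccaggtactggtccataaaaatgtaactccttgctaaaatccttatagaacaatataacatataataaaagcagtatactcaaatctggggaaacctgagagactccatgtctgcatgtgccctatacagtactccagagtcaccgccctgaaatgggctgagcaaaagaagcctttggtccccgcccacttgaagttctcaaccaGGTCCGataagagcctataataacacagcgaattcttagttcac
H1f3: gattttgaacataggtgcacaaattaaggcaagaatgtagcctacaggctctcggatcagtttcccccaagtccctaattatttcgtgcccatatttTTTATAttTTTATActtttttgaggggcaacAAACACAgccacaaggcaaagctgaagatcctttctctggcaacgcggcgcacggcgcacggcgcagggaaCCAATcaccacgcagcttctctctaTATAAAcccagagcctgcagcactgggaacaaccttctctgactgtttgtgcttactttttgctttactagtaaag
H1f6: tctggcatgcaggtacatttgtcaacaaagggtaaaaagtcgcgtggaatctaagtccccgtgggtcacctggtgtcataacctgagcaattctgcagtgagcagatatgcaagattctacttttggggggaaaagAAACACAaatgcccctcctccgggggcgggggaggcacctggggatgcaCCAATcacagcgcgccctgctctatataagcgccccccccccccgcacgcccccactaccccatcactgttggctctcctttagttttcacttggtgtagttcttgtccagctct
H2bc1: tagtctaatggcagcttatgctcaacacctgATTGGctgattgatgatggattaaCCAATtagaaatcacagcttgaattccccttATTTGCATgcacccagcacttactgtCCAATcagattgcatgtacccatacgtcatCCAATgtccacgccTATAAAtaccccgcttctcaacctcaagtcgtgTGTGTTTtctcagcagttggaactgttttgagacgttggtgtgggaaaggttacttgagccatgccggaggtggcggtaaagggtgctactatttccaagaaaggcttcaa
The CCAAT boxes of H2ac6 and H3c2, the AC, CCAAT and TATA boxes of H1f3 and the GGTCCG of H4c2 can be read there in capitals, and the unopened H2bc1 carries CCAAT, octamer and TATA letters as well. In H4c2 the GGTCCG begins at base 7 of the gene, while in the other H4 promoters that hold it, it begins before the start.

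The CCAAT box, GGTCCG and AAACACA differed between the histone classes, and TATAAA was found in every class. The CCAAT box was present in 6 of 6 H1, 18 of 18 H2A, 16 of 16 H2B and 10 of 10 H3 promoters but in 3 of 11 H4 promoters (H4c4, H4c3 and H4c1), against 38.2% of 21263 protein-coding promoter windows of this length. GGTCCG was present in 10 of 11 H4 promoters, all but H4c1, against 10.5% of all windows, and on the gene's strand its first base lay at a median of 46 bases before the annotated start. AAACACA was present in 5 of 6 H1 promoters, all but H1f1, with its first base 112 to 122 bases before the start, against 6.15% of all windows. These counts describe letters in a window and not bound sites. The octamer was present in 6 of 16 H2B promoters (H2bc14, H2bc12, H2bc8, H2bc3, H2bc1 and H2bc18) and 7 of 18 H2A promoters, against 1.66% of all windows. An H2A and an H2B gene of a divergent pair share letters, because their windows overlap. This held for the octamer of H2ac12/H2bc12, H2ac8/H2bc8 and H2bc1/H2ac1. H2aw, H2ac6, H2ac4 and H2ac20, which also hold it, are in none of the divergent pairs described below. Those pairs need a given strand for both genes. H2ac6 and H2ac20 each shared a peak in every library with an H2B gene of no given strand, H2bc4 and H2bc21. Whether their octamers lie in DNA shared with that H2B gene was therefore not assessed. None of the H2A matches lay on the gene's own strand. TATAAA was present in 4 of 6 H1, 11 of 18 H2A, 8 of 16 H2B, 4 of 10 H3 and 8 of 11 H4 promoters, against 12.6% of all windows. On the gene's strand its first base lay at −33 to −26 in H1 and −42 to 31 in H2A promoters (minus is before the start). It lay at −94 to −10 in H2B, −168 to −29 in H3 and −250 to 42 in H4 promoters. In H2bc15, H2bc22, H2bc12 and H2bc7 the match lay on the other strand alone. The counts thus do not place a TATA box at a set distance from each start. H2bc1, with no peak in lung, held CCAAT, the octamer, TATAAA and, on the other strand, AAACACA.

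**Figure D2:**
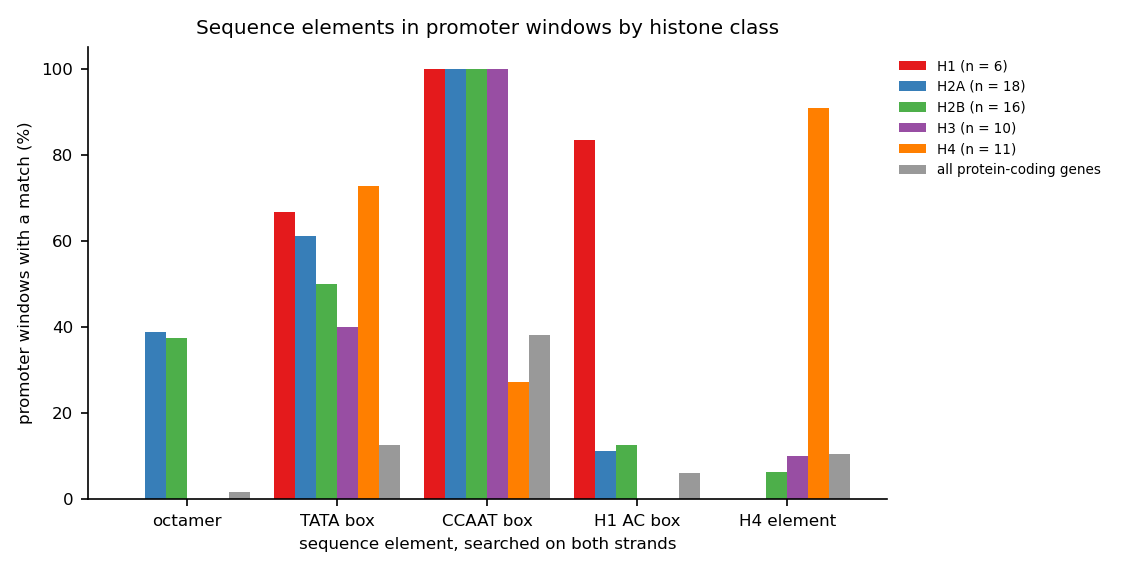
Share of promoter windows of each histone class, and of all 21263 protein-coding windows in grey, that hold each sequence element on either strand; bars start at 0 and carry no error because each is a count over a fixed set of genes. The CCAAT box fills all H1, H2A, H2B and H3 windows, the H4 element 10 of 11 H4 windows and the H1 AC box 5 of 6 H1 windows.

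H2A and H2B, which form the dimers at the outside of the nucleosome, are largely encoded by gene pairs that start back to back. Among the 61 members with a known strand, 10 such divergent pairs had starts within 500 bp of each other, with 163 to 280 bp between them, and all 10 joined an H2A to an H2B gene. In 9 pairs a single peak spanned both starts in every library, and in 7 of these the summit lay between the starts in all 4. Over all peaks and libraries this was 32 of 36. The same counts over divergent pairs of other genes were not made, so no trait of H2A/H2B pairs is read from them. The exceptions were H2ac15/H2bc15, whose summit fell outside in replicate 1, and H2bc7/H2ac7, whose peak had its summit at −2916, −2972 and −2997 bp from the pair's midpoint in replicates 2, 3 and 4, at the neighbouring pair H2ac8/H2bc8. The remaining pair was H2bc1/H2ac1, with 280 bp between its starts and no peak. Where a peak held an H2A or H2B gene together with an H1, H3 or H4 gene, which was so for 13, 13, 12 and 14 peaks in replicates 1 to 4, the summit was nearest to an H2A or H2B start in 9, 9, 8 and 10 of them. Some of these peaks held both an H2A and an H2B start beside a single other start, and the rest held an H2A or an H2B start but not both. The share that such numbers of starts alone would give was not worked out, so no preference is read from the counts. At the peak of H2bc6 and H1f4 the nearest start, that of H2bc6, was 582 and 530 bp away in replicates 2 and 3. These divergent pairs were singled out after the data were seen.

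**Figure D3:**
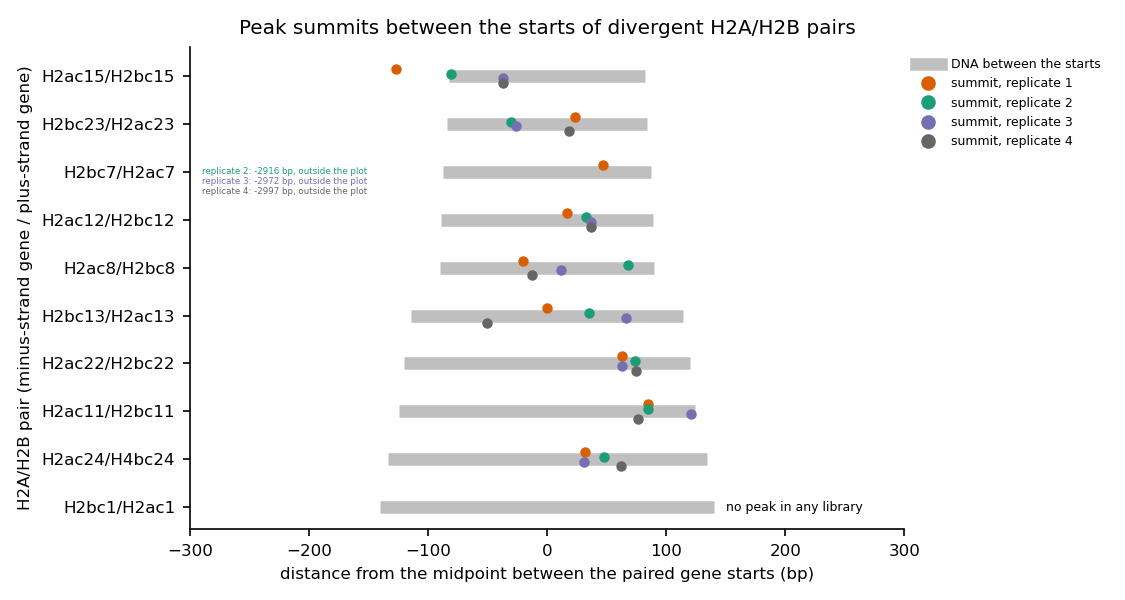
Position of the peak summit at each of the 10 divergent H2A/H2B pairs, in bp from the midpoint between the 2 starts, with 1 point per library; the grey bar spans the DNA between the starts. In 7 pairs every point lies within the bar, and the summits of H2bc7/H2ac7 in replicates 2, 3 and 4 are written as values because they lie outside the plot.

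H2A genes had a median percentile of 99.3 over the 17 open members, with per-library medians of 99.1, 99.6, 99.5 and 99.1. The strongest was H2ac19 on chromosome 3, which shared its peak with the H3 gene H3c15 in every library. That peak had a fold enrichment of 466, 189, 156 and 167 in replicates 1 to 4, at percentiles 99.94, 99.98, 99.97 and 99.97, the strongest at any member in every library. Its summit lay 1108 to 1221 bp from the start of H2ac19, past the gene's end, and 26 to 139 bp before the start of H3c15. The neighbouring peak held H2ac18 and H3c14, with a fold of 294, 111, 94.98 and 117, and was again summited at the H3 start, 135 to 172 bp before it. H2ac18 and H2ac19 thus took their rank from a peak whose summit lay at a neighbouring H3 gene in every library. The lowest open H2A gene was H2aw on chromosome 11, with a fold of 63.9, 29.8, 20.3 and 24.6 and percentiles of 92.4, 96.6, 95.7 and 96.3. Its peak also touched a start of Trim17, a ubiquitin ligase gene that is no histone, with the same percentiles, and signal of the 2 genes cannot be told apart. H2ac21 and H2ac20, also on chromosome 3, shared a peak with H2bc21, with a fold of 118, 46.1, 28.4 and 32.4, and its summit lay 10 to 33 bp before the start of H2ac20.

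H2B genes had a median percentile of 99.2 over the 17 open members, with per-library medians of 98.7, 99.3, 99.2 and 99.0. The highest was H2bc23 on chromosome 13, under a peak shared with H2ac23 and H4c17, with a fold of 304, 104, 76.9 and 74.1. A peak of nearly the same height, 308, 90.3, 77.2 and 74.1, covered H2ac24, H4c18 and the H2B gene listed under the symbol H4bc24 (older symbol Hist1h2br). The promoters of these 2 gene sets are near-copies. The 300-base promoters of H2bc23 and H4bc24 are identical over all 300 bases, those of H4c17 and H4c18 over 285 and those of H2ac23 and H2ac24 over 200. On chromosome 3, H3c14 and H3c15 share 231 bases and H2ac18 and H2ac19 share 219. How reads that map to several places were treated is not given in the sources used here, so the heights at these 10 genes, the strongest peaks among them, are uncertain. Without these 10 genes, 54 of the remaining members were open, 34 had a summit of their own in every library and the median percentile was 98.6. H2bc18, paired in one peak with the H3 gene H3c13, had a fold of 141, 47.8, 36.5 and 31.4, with the summit 29 to 138 bp before its own start. The lowest open H2B gene was H2bu2, with a fold of 15.7, 11.9, 7.80 and 10.6 and percentiles of 69.6, 89.7, 86.2 and 89.8. Its percentile was lowest in replicate 1, and the summit lay before the start in every library, at −67, −38, −16 and −159 bp.

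H3 genes had a median percentile of 98.7 over 12 open members, with per-library medians of 98.5, 99.2, 98.9 and 98.7. H3c15 and H3c14, described above, held the highest ranks. The lowest was H3c11 on chromosome 13, with a fold of 105, 40.9, 30.9 and 23.6 and percentiles of 96.2, 97.9, 97.7 and 96.1. Its peak was its own in every library, with the summit 53 to 98 bp inside the gene. The 12 H3 genes were thus all above the 95th percentile in the mean, and they differed in whose start held the summit. At H3c13 the summit lay 908 to 1017 bp past the start, at H2bc18, and at H3c10 it lay 1264 to 1381 bp before the start, between H2bc13 and H2ac13. At H3c3 it lay 1067 to 1080 bp before the start, 133 to 146 bp from the start of H2bc3 and 74 to 87 bp from the annotated pseudogene H2ac5-ps.

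H4 genes had a median percentile of 98.5 over 12 open members, with per-library medians of 97.5, 99.1, 98.7 and 98.5. The highest was H4c17, through the peak it shares with H2bc23 and H2ac23, whose summit lay 1440 to 1493 bp before the H4c17 start. The lowest was H4c14 on chromosome 3, with a fold of 65.9, 31.2, 29.5 and 22.7 and percentiles of 92.7, 96.8, 97.5 and 95.9. H4c14 was alone in its peak and had a summit within 500 bp of a gene end in every library. H4c11 was among the 3 members whose rank varied most, with a fold of 63.9, 41.4, 40.7 and 31.1 and percentiles of 92.4, 98.0, 98.6 and 97.4, the lowest percentile being that of replicate 1. Its summit lay 704, 778, 721 and 688 bp before the annotated start in replicates 1 to 4, and the nearest other annotated start was 12212 to 12302 bp away. The summit at H4c11 was therefore away from its start without lying at another histone gene. Over all members with a strand, the nearest summit lay at a median of −57 ± 9.83 bp from the start (SD, n = 4; minus is before the start), and the median distance in either direction was 122 ± 16.3 bp for members and 94 ± 14.7 bp for all genes. The members' median was the larger in each library, at 114, 131, 103 and 139 bp against 74, 93, 101 and 108 bp for all genes.

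**Figure D4:**
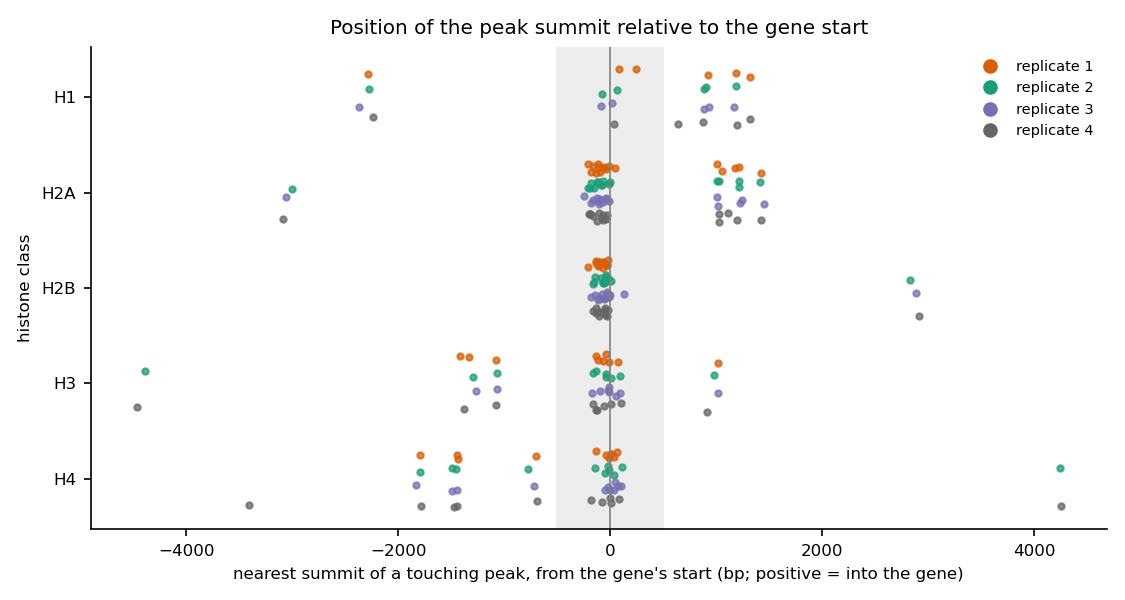
Distance from the annotated start to the nearest summit of a touching peak for open members with a known strand, by histone class and library; positive values lie towards and past the gene's 3′ end, and grey marks 500 bp either side of the start. Most H2A and H2B points lie in the grey band, and the H1 points lie mostly outside it.

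Linker H1 genes encode proteins that bind the DNA between nucleosomes. Counted as positive into the gene, the median distance from start to summit was 566 ± 141 bp over 6 H1 genes. That median is a midpoint between distant values, in replicate 2 between 64 bp at H1f3 and 882 bp at H1f4, and describes no single gene. In the other classes the median lay before the start, at −69.5 ± 7.42 bp for 17 H2A, −60.5 ± 9.29 bp for 15 H2B, −83.9 ± 46.0 bp for 10 H3 and −71.5 ± 72.4 bp for 11 H4 genes (mean ± SD over 4 libraries). These SDs give the spread of a class median over libraries and not the spread between genes, which was wide: in replicate 1 the H1 summits ran from −2284 bp at H1f1 to 1316 bp at H1f4, and core members such as H2ac21 and H3c13 had theirs 1009 and 1017 bp past the start. No difference between classes was tested. H1f5 had its summit 1183, 1186, 1164 and 1197 bp from the start in replicates 1 to 4. That is 371 to 404 bp past the 3′ end of the 794 bp gene, and the nearest other annotated start was 3936 to 3969 bp away. H1f2 was alike, with the summit 926, 903, 887 and 877 bp from the start, 153 to 202 bp past the end of a 725 bp gene and 5788 to 5837 bp from the next start. At both genes the strongest point of the peak lay beyond the gene in all 4 libraries. H1f4 had its summit 1316, 882, 934 and 1315 bp from the start, likewise past its 3′ end, by 101 to 535 bp, but there a start annotated to H2bc6 lay 148 to 582 bp away. H1f1 took its value from a peak whose summit lay 2240 to 2370 bp before it, 49 to 179 bp from the start of H4c1. H1f3 was the only one of the 6 with a summit at its start in every library, 78, 64, 15 and 37 bp inside the gene, within the last printed bases of its promoter or just beyond them.

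In height H1f1 was the highest of the somatic H1 genes in 4 of 4 libraries, through the peak summited at H4c1. H1f1 had a fold of 174, 65.4, 55.4 and 52.6, H1f2 of 112, 48.0, 41.5 and 38.6, and H1f3 of 108, 57.1, 30.4 and 33.0. H1f4 had a fold of 92.2, 42.2, 32.3 and 33.9 and H1f5 of 101, 37.5, 27.9 and 38.0. All 5 exceeded the median fold of all open genes in each library, and their mean percentiles ran from 97.3 to 99.0. H1f6, the testis linker histone gene, lies between H2bc4 and H4c3, both of which had peaks above the 97th percentile in every library. Its own peak had a fold of 5.14, 4.69, 3.90 and 4.67 and percentiles of 21.8, 65.2, 51.6 and 66.7, below those of every other open member in each library. Its summit lay 239 bp inside, 74 and 90 bp before and 641 bp inside the start in replicates 1 to 4, so the libraries did not place it at one point. With peaks restricted to a −log10 q of at least 5, 63 members were open, the one lost being H1f6.

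The short genes were not only open at the start but lay inside their peaks from end to end. Of 60 members of up to 1 kb, 53 were covered whole by peaks in every library, against 4.12% of all 1577 protein-coding genes of that length (65). The 53 members thus made up most of those 65, and the other 12 included H4f16, a histone H4 gene outside the clusters, and Mif, Naa38 and Sdhaf1. Few short genes outside the clusters were open at a start at all, 68 of 1517, against 58 of the 60 short members. The short members not wholly covered in every library were H2ac22, H3c8, H3c6, H2ac7 and H1f6, covered in 2 or 3 of 4, and H2bc1 and H2ac1, not covered at all. This whole-gene measure was chosen after the data were seen.

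Peaks covered 40.5 ± 8.62% of the chromosome 3 cluster, 51.1 ± 10.9% of the 6.28 kb on chromosome 11, 24.2 ± 4.61% of the first and 17.7 ± 2.35% of the second chromosome 13 cluster (mean ± SD, n = 4). Replicate 1 was the lowest of the 4 libraries in each cluster, at 27.9%, 37.5%, 18.4% and 14.6%. The 1487 kb between the chromosome 13 clusters, which holds no clustered histone gene, was covered to 4.26 ± 0.876%. The second cluster itself was uneven. From its first gene to H1f1 it held 29 members over 233 kb and 28.3 ± 4.06% was covered, and the 169 kb from H1f1 to the unopened pair H2bc1 and H2ac1 was covered to 3.27 ± 0.200%.

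**Figure D5:**
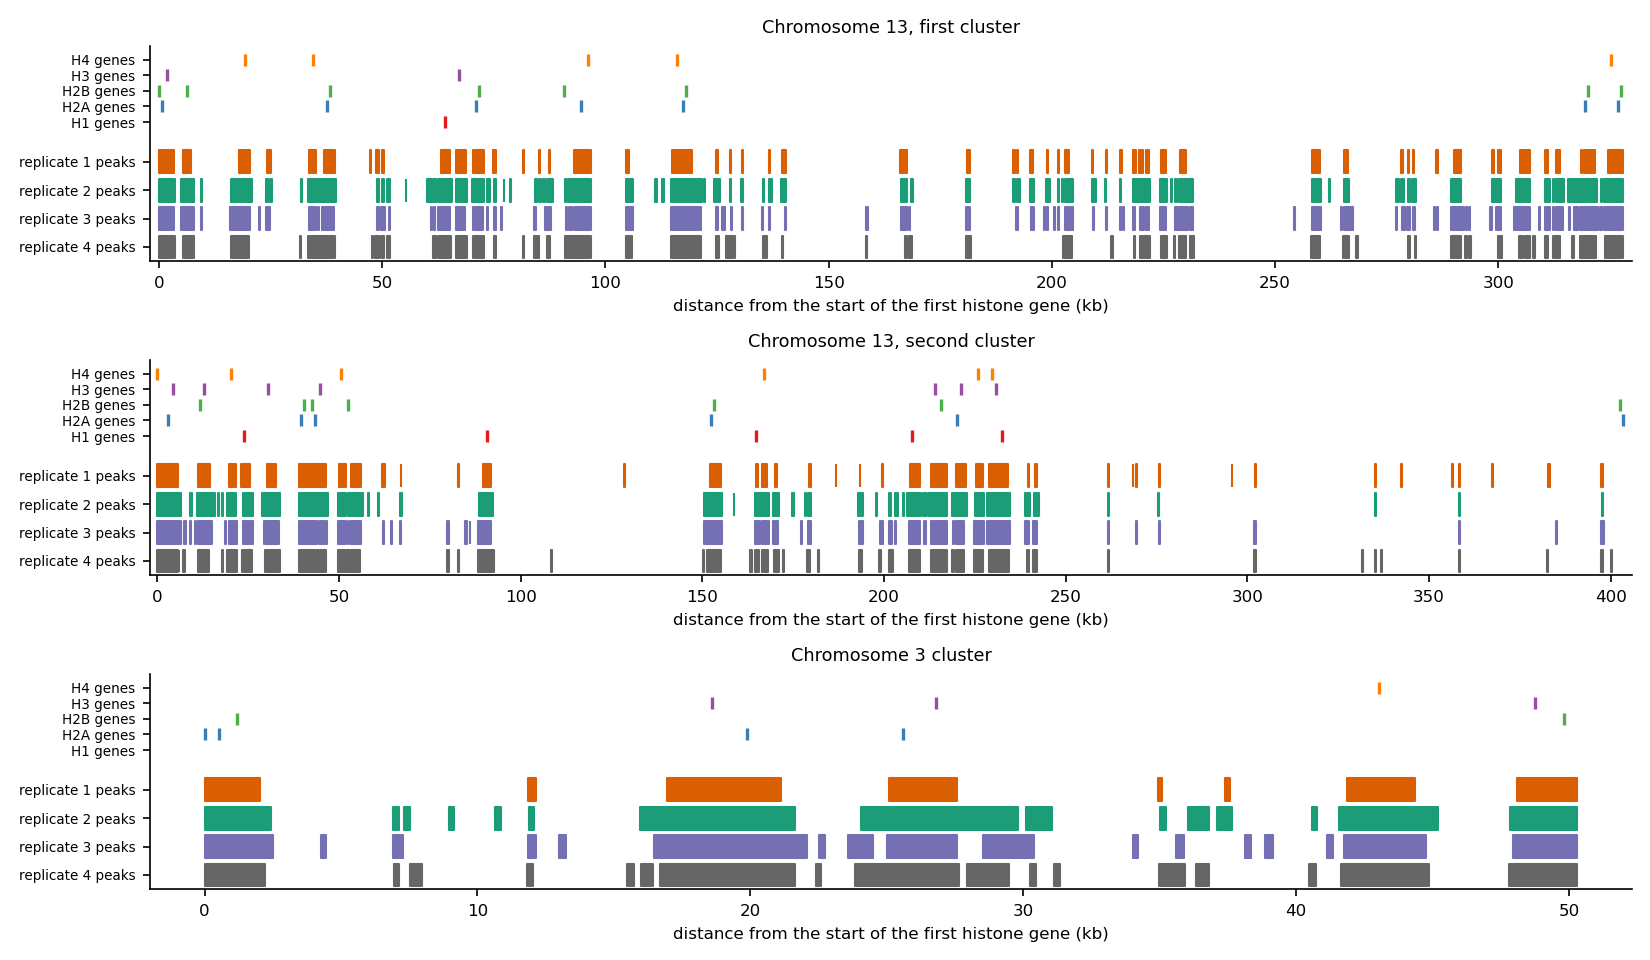
Peaks of each library along the chromosome 13 clusters and the chromosome 3 cluster, with the histone genes as ticks by class above and the distance from the first gene in kb below. Peaks gather under the ticks in all 4 libraries, and the stretch of the second chromosome 13 cluster before its last 2 genes, H2bc1 and H2ac1, holds few.

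The other genes inside the clusters were open less uniformly. Of 9 protein-coding genes that are no histone genes, 3 were open, Zfp184 (percentile 97.4 ± 1.40), Pom121l2 (82.9 ± 5.71) and Hfe (62.6 ± 17.6, SD, n = 4 each), Hfe being the haemochromatosis gene, which lies between H4c3 and H1f2. Prss16 and Slc17a2 had a peak in 3 libraries and Slc17a4 in 1. Trim38, Slc17a3 and Slc17a1, which lie between H1f1 and H2bc1, had none. Beyond the clusters, Fcgr1 next to the chromosome 3 genes had no peak, and Rnf187 next to the chromosome 11 genes was open at 95.2 ± 2.70 (SD, n = 4). The H3 gene H3f4 (chr11:58961711-58962273) lies past H2aw but carries no symbol of the kind used to choose members. It had no peak in replicate 1 and percentiles of 29.98, 30.9 and 54.7 in replicates 2, 3 and 4.

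The first chromosome 13 cluster also holds tRNA genes, looked at after the data were seen. Of its 31 annotated tRNA genes, 16 were open, against 64.5% of the 408 tRNA genes on the assembled chromosomes (263), and the median percentile of the 16 was 87.1 (51.7 to 96.9), against 94.9 for all open tRNA genes. The 2 ranges overlapped, since the highest tRNA genes, n-TDgtc12 and n-TSaga8, had a mean percentile of 96.9 and the lowest of the 23 histone genes, H4c11, had 96.6. Without replicate 4, 26 of the 31 tRNA genes were open, so that count rests on that library. Between the chromosome 13 clusters, 43 of 46 tRNA genes were open. Of the peaks in the clusters that touch no histone gene start, 71, 110, 138 and 98 in replicates 1 to 4, those at tRNA genes numbered 23, 23, 26 and 16.

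The genes that act with the clusters were open as well. The 11 genes listed as replacement histones, all outside the clusters, were open, with a median percentile of 97.5 (91.0 to 99.6). The list also takes in H4f16, the H4 gene outside the clusters named above, whose mean percentile was that median. Among the 11 listed genes H2az2 had a fold of 269, 86.4, 70.2 and 68.5 and Macroh2a1, the lowest, 30.8, 17.1, 17.3 and 14.0. Of the factors for transcription and 3′ processing of histone genes, 21 of 21 were open, with a median of 98.6 (94.3 to 99.8), against 65.1% of all genes. Npat, the S-phase coactivator of the clusters, had percentiles of 99.0, 99.2, 99.2 and 99.0. Hinfp, which binds H4 promoters, had 99.3, 99.7, 99.7 and 99.5, and Slbp, which binds the stem-loop of the transcripts, had 99.5, 99.5, 99.6 and 99.5. These 3 varied little between the libraries, and Lsm11, a part of the U7 particle that cuts histone transcripts, was the lowest at 91.2, 95.1, 95.4 and 95.4. The 12 histone chaperones were all open, from Atrx at 87.9 to Asf1b at 99.8, with a median of 97.2. The clustered members' median of 98.8 lay within the range of each of these 3 lists.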

How the data were processed

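The data were 1 narrow peak list for each of the 4 ATAC-seq libraries. The submitters' processing notes name Bowtie2 2.5.2 and MACS3 3.0.1, with FastQC 0.12.1, bedtools 2.31.0, SAMtools 1.18, Trim Galore, deepTools and build mm10, and give no role or order. Duplicate removal, the handling of reads with several matches, the Tn5 shift and the effective genome size are not given in the sources used here. The deposited fold enrichment is the authors' ratio of summit signal to background. It is each peak's own value and served for ranks inside a library. The deposited −log10 q was used as a stricter threshold, the deposited −log10 p and score were not used, and the deposited summit offset, in bp, placed the summit. Read totals were not used here, so depth is unknown and no counting interval is given.

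Contigs outside the 19 autosomes and the sex chromosomes were dropped. Gene ends and starts came from RefSeq tables of GRCm38.p6. For the 5 members with no start given, either gene end was used. Tables were made with Python 3.11.15, pandas 2.3.3 and NumPy 2.4.6, and the overlap and rank steps were tested on simulated data. Values per library are given for the highest and lowest open member of each class, members without a peak, H1 and testis-type members, those of chromosomes 3 and 11, and the 3 with the most variable rank. Other genes given values were picked after their values were seen. The members and lists were chosen with earlier results of these data known. Samples formed 1 group and no p-value was computed. Alternatives were a −log10 q of at least 5, lists of equal length, each library left out, windows of 250 bp and 1 kb, 3 of 4 libraries, 100 bp of overlap, either gene end, and motifs on the gene's strand. Leaving out members with a copied promoter was added after the data were seen, as were the measures on pairs, whole genes and tRNA genes.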

Additional observations from a re-analysis of the deposited data

Results flagged for a closer look

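Of 26 sets of 4 library values examined, 1 held a value far from the others. The percentile of H1f4 was 95.4 in replicate 1, against 98.0, 97.8 and 97.7 in replicates 2, 3 and 4. Chance alone flags about 1 in 20 such sets. Replicate 1 also had the fewest peaks, and its part in this value was not tested.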

How the results depend on the processing

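Of 109 alternative values, 103 stayed within the spread between libraries or within 1.5 times the count, 6 moved and 0 changed sign. The members' median percentile was 97.8 with a −log10 q of at least 5 and 98.5 with lists of equal length, both of which shorten the lists on which ranks are taken. Requiring 3 of 4 libraries gave 5 open neighbours, and searching the gene's strand alone gave a TATA box in 4 H2B and a CCAAT box in 1 H4 promoter, which both follow from the rule itself. The tRNA count was 26 without replicate 4, and 11 with a −log10 q of at least 5. Leaving out each library in turn, 64 members were open every time, own summits numbered 40 to 42, the median percentile 98.8 to 99.1, open neighbours 3 to 4, distinct peaks 36.3 to 38, and the summit lay at −61 to −53.3 bp. Coverage was 38.2 to 44.7% on chromosome 3, 46.8 to 55.6% on chromosome 11, 22.4 to 26.1% in the first and 16.8 to 18.7% in the second chromosome 13 cluster. Pairs with the summit between numbered 7 to 8, short members inside peaks 53 to 55 and open tRNA genes 16 to 26. No paired analysis was possible because the libraries form 1 group. One summit per peak, shared peaks, copied promoters and unknown read depth limit every value at a single gene.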
